A study of Mus musculus with 123 samples.

Results

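The genes described here are 35 members of the pathway that takes up glucose, breaks it down to pyruvate and lactate, stores it as glycogen or diverts it into the pentose phosphate pathway, measured in single αMHC-GFP+ cells of the developing mouse heart. They were chosen by name as glucose transporters, hexokinases, enzymes of upper and lower glycolysis, lactate dehydrogenases and monocarboxylate transporters, pyruvate dehydrogenase kinases, glycogen enzymes and 2 pentose phosphate enzymes, and all 35 were found among the 23337 symbols of the count table. Pkm appears there under its older symbol Pkm2. The cells came from hearts of the αMHC-GFP strain at E9.5 and E12.5 (days of embryonic development) and at P1 (the first day after birth), and every group carried the same transgene. GFP in this strain is driven by the promoter of αMHC, the cardiac myosin heavy chain gene Myh6, so the sort keeps cells in which that promoter is active and cannot tell atrial from ventricular or nodal cells. No treatment or mutation separated the groups, and age was the factor compared. Hearts of both embryonic ages were digested with collagenase and those of P1 with another enzyme preparation for longer, so in comparisons with P1 the digestion and the age cannot be told apart.

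Cells were used where at least 2000 genes had a count, a minimum that the study's methods also name, which left 42 cells of E9.5, 29 of E12.5 and 41 of P1, 112 of the 123 deposited cells and fewer than the study analysed. The labels name no animal, litter or pool. Each time point was therefore taken as 1 sample, cells were not treated as replicates, and no p-value was computed. Total counts ranged from 268301 to 6351742 per cell at E9.5, from 148258 to 7711355 at E12.5 and from 69522 to 327360 at P1. The titles of the cells fall into naming sets by prefix, C (14 cells) and N530 (28 cells) at E9.5, C (20 cells), N523 (8 cells) and E12-5b (1 cell) at E12.5, and C alone at P1. Set N530 supplied 94.5% of the E9.5 counts and set N523 supplied 82.7% of the E12.5 counts, so pooled values at these ages mainly describe the more deeply sequenced sets, and what a set stands for is not given in the labels.

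Of 10 cardiomyocyte markers, 6 or more were at 50 CPM (counts per 1000000 counts) or more in 39 of 42 E9.5 cells, in 29 of 29 E12.5 cells and in 40 of 41 P1 cells. The other 4 cells, 3 of set C at E9.5 and 1 at P1, had fewer than 4 of these markers and go against their label. The P1 cell among them carried 7697 CPM of 6 endothelial markers and 2057 CPM of the 35 members, the lowest sum of any cell used. Without these 4 cells 1 call of a member was lost, that of Slc16a1 at E12.5 against E9.5, and 2 were gained. Summed macrophage and erythroid markers had a median of 0 CPM over the cells of each time point, as had neural crest and neuronal markers. The highest value of any cell was 4007 CPM for fibroblast and 2695 CPM for epicardial markers, both at E9.5, where endothelial markers reached 1246 CPM. Smooth muscle markers, which early cardiomyocytes share, had median levels of 4373 CPM for E9.5, 2324 CPM for E12.5 and 1110 CPM for P1, and their part in the results below was not tested.

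Glycolysis splits glucose into pyruvate in the cytosol. Hexokinase traps glucose as glucose 6-phosphate, phosphofructokinase commits it to breakdown, and lactate dehydrogenase interconverts pyruvate and lactate, while pyruvate dehydrogenase kinases restrain the conversion of pyruvate to acetyl-CoA inside mitochondria by phosphorylating pyruvate dehydrogenase. Many steps are served by several genes, of which some are used broadly and others mainly in muscle, such as Eno3 and Pgam2, or in heart, such as Ldhb. The embryonic heart is known for its reliance on glucose and lactate, and the heart after birth for its use of fatty acids.

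The promoters of 4 members are shown. Ldha and Ldhb form the pair in which the balance between isoforms crossed over, Slc16a3 was found in 3 of 41 cells at P1, and Pgam2 held the only promoter of a member with a match to the binding motif of the muscle factor MEF2. Sequences are those of RefSeq (GRCm38.p6), written 5′ to 3′ on the strand of the gene from 250 bases before to 50 bases after the start. Capitals mark ACGTG and GCGTG, the core letters of hypoxia response elements, on either strand in the first 3 and the MEF2 match in the last, and CACGTG counts as a match on each strand.
Ldha (chr7:46845554-46845853, plus strand): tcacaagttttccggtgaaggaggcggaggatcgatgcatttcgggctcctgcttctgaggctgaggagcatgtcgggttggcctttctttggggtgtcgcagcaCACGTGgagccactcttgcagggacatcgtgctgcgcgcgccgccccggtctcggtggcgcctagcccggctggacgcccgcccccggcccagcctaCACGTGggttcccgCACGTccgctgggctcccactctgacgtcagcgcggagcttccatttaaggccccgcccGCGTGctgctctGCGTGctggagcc
Ldhb (chr6:142507908-142508207, minus strand): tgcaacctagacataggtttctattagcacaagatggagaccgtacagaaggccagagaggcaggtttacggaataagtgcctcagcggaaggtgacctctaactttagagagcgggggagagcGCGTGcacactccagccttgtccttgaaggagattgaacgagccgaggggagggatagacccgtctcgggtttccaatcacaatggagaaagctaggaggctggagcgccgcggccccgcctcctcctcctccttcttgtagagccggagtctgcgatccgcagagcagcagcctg
Slc16a3 (chr11:120948817-120949116, plus strand): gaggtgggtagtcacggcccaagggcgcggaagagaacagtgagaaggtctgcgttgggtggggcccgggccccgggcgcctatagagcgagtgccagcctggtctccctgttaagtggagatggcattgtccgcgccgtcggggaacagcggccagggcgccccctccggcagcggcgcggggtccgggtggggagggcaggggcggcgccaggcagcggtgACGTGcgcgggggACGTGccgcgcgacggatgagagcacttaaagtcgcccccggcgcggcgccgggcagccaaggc
Pgam2 (chr11:5803747-5804046, minus strand): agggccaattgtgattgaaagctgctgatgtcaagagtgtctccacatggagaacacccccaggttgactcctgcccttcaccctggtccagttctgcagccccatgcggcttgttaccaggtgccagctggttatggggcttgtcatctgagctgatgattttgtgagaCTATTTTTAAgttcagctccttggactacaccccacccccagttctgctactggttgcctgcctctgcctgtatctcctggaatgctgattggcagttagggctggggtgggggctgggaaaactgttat

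Of the 35 members, all but Slc2a3 and Slc2a4 were matched to 1 or more RefSeq promoters, 46 promoters of 33 genes in all. ACGTG was found in 20 of these 46 promoters (43.5%) and in 19.6% of all 32851 mouse promoters of the same length. GCGTG was found in 26 (56.5%) and in 32.4% of all promoters, and the MEF2 motif in 1 (2.17%) and in 1.86%. The Ldha promoter shown held 5 matches to ACGTG and the Slc16a3 promoter 2, whereas the Ldhb promoter held no ACGTG and 1 match to GCGTG. A second Ldha promoter, at chr7:46846832-46847131, held no ACGTG and 2 matches to GCGTG. Among members called lower at P1 than at E9.5 by the rule given below, 7 of the 12 with a promoter held ACGTG, as did 3 of the 8 called higher and 8 of the 13 called neither. These matches describe letters in a window, and no binding was measured.

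Pooled CPM is the sum of a gene's counts across all cells of 1 age over the sum of their totals. A gene was called higher or lower when it reached 10 CPM in the higher time point, differed at least 2-fold and had the same direction in every combination of naming sets of 6 or more cells. By this rule 25 of the 35 members were called in 1 or more of the 3 comparisons and 10 in none. From E9.5 to E12.5, 5 of 33 members tested were higher (15.2%) and 7 were lower (21.2%), where 9.15% of all 8647 genes tested were higher and 22.8% were lower. From E9.5 to P1, 8 of 33 members were higher (24.2%) and 13 lower (39.4%), beside 18.1% and 35.7% of 9003 genes. From E12.5 to P1, 6 of 29 were higher (20.7%) and 7 lower (24.1%), beside 25.1% and 23.3% of 8122 genes. The shares of the members thus lay near those of all genes, and what follows concerns which genes of each step stood higher and which lower. The 3 comparisons share samples, so their calls are not independent of each other.

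The median log2 ratio of the tested members was -0.68 between E9.5 and E12.5, -0.70 between E9.5 and P1 and -0.23 between E12.5 and P1, later over earlier age, where that of all tested genes was -0.60, -0.59 and 0.05. Scaling by TMM factors in place of totals would shift every ratio by 0.43, 0.17 and -0.26 in the same order. In the first comparison that scaling raised the share of higher genes among all called genes from 28.6% to 50.2%. Calls of members held under all 11 alternative settings for 3 of 12 members from E9.5 to E12.5 (Ldhb, Pdk2 and Tkt), for 17 of 21 from E9.5 to P1 (all but Hk1, Pfkp, Gapdh and Eno1) and for 7 of 13 from E12.5 to P1 (Slc2a1, Pgam1, Eno3, Ldhb, Pdk3, Pdk4 and Pygm). Most calls between E9.5 and P1 thus held under these 11 settings, and most between E9.5 and E12.5 did not.

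**Figure D1:**
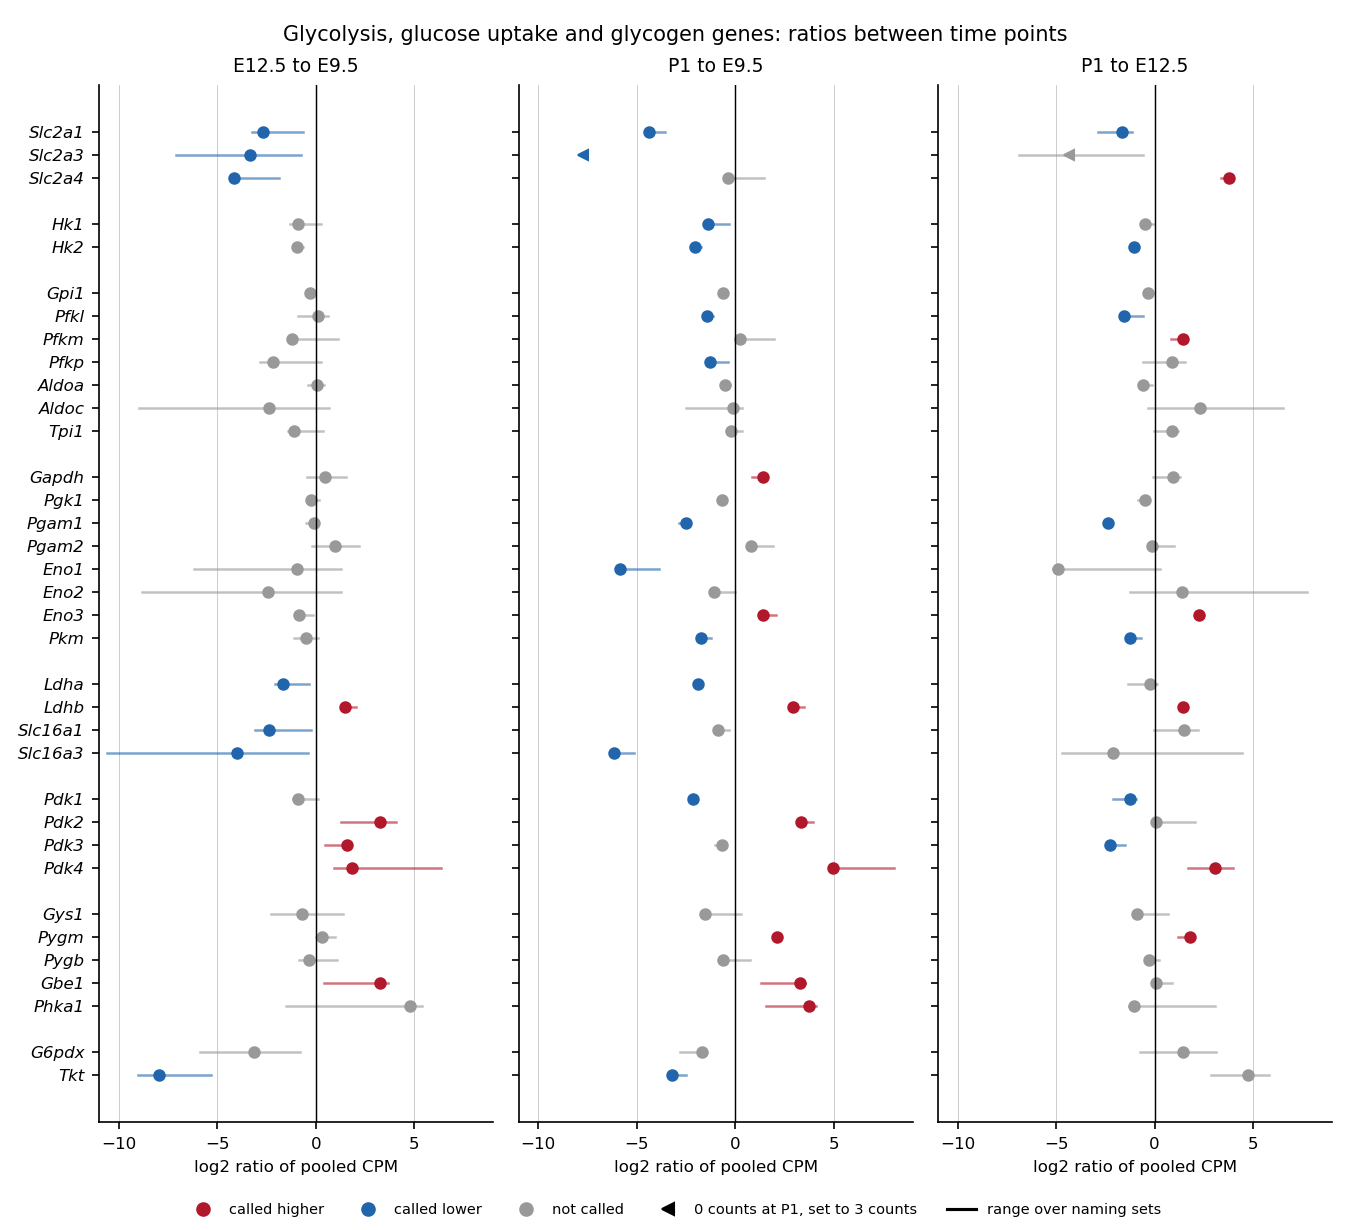
Log2 ratio of pooled CPM (x axis) for each of the 35 members (y axis, grouped by role from glucose transport at the top to pentose phosphate enzymes at the bottom) in the 3 comparisons of time points, with lines for the range over naming sets; red and blue mark genes called higher and lower, and triangles a gene with 0 counts at P1. In the middle panel 13 genes are blue and 8 are red, with Slc2a3, set at the floor of 3 counts, at -7.71 and Pdk4 at 4.93 at the ends.

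The 35 members together held 21192 CPM at E9.5, 16708 at E12.5 and 18154 by P1. The log2 ratio of these sums was -0.34 for E12.5 to E9.5, between -0.37 and -0.005 over the naming sets (SD 0.20). For P1 to E9.5 it was -0.22, between -0.24 and 0.11 (SD 0.25), which is within the spread of the naming sets. P1 holds set C alone, so with P1 each such range and SD rests on 2 combinations that share the same P1 cells. Cells overlapped widely in the sum, which ran from 5855 to 37429 CPM at E9.5 (median 16942), from 6594 to 30224 CPM at E12.5 (median 17239) and from 2057 to 36904 CPM at P1 (median 17398). The leading genes differed, and Aldoa, Ldha and Pkm supplied 53.2% of the sum at E9.5 against Ldhb, Aldoa and Eno3 with 51.4% at P1. Glucose transporters made up 3.75% of the summed CPM at E9.5, then 0.690% at E12.5 and 0.277% by P1, and by naming set 2.89% in C and 3.79% in N530 at E9.5, 1.80% in C and 0.453% in N523 at E12.5. The hexokinase share was 6.76%, 4.44% and 2.10% in the same order. The lower glycolytic enzymes made up 28.2%, 34.2% and 37.2%, and the glycogen enzymes 1.79%, 3.05% and 3.41%, while the E12.5 cells of set C stood at 1.85% and those of N523 at 3.29%. Single cells weighed heavily on some members, and without its leading cell the pooled CPM was more than 1.5 times lower for 10 members at E9.5, 16 at E12.5 and 11 by P1.

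**Figure D2:**
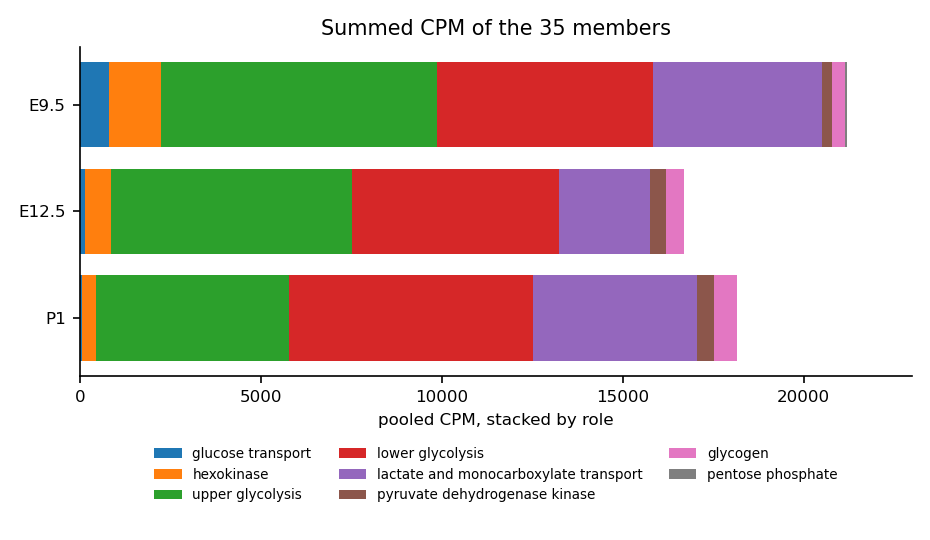
Summed pooled CPM of the 35 members (x axis) at each time point (y axis), stacked by role. The bars end at 21192, 16708 and 18154 CPM, and the glucose transport and hexokinase segments are narrowest at P1, at 0.277% and 2.10% of the sum.

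Glucose enters through transporters of the Slc2a family. Slc2a1 and Slc2a3 were both called lower at E12.5 and at P1 than at E9.5, and Slc2a4 was not called between E9.5 and P1. Slc2a1 encodes GLUT1, the broadly used transporter of the embryo, and lies at chr4:119108711-119137983. It was at 680 CPM at E9.5 (95% Poisson interval 675 to 685), at 105 CPM at E12.5 (102 to 108) and at 32.99 CPM by P1 (28.8 to 37.6). These intervals cover the counting of reads only, and since no molecular identifiers were used, reads are not independent molecules. Binomial intervals of shares cover the counting of cells within the 1 sample of an age only, as if cells were drawn independently, and say nothing of other animals or of the difference between naming sets. Single cells ranged from 0 to 3690 CPM with a median of 506 at E9.5, from 0 to 801 CPM with a median of 155 at E12.5, and from 0 to 878 CPM with a median of 0 at P1. The cells of the 3 ages overlapped, and 1 cell held 46.2% of the P1 counts, without which Slc2a1 was at 18.1 CPM there. A count was held by 38 of 42 cells at E9.5 (90.5%, with an exact binomial interval of 77.4 to 97.3), by 24 of 29 at E12.5 (82.8%, 64.2 to 94.2) and by 5 of 41 P1 cells (12.2%, 4.08 to 26.2). With each cell thinned to 100000 counts, and 3 shallower P1 cells left out, these shares were 90.5%, 72.4% and 13.2%. P1 differed from E9.5 by a log2 ratio of -4.37 (-4.40 to -3.57 over naming sets), and against E12.5 it was -1.67 (-2.90 to -1.17). For E12.5 to E9.5 it was -2.70, and within set C alone it was -0.67 (391 CPM and then 246 CPM), short of the 2-fold limit.

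Slc2a3, the gene of the high-affinity transporter GLUT3, was at 92.0 CPM at E9.5 in 24 of 42 cells and at 9.08 CPM at E12.5 in 6 of 29 cells. For E12.5 to E9.5 its log2 ratio was -3.34 and within set C -0.77, where the call was lost, and 1 cell held 68.6% of the E12.5 counts, without which Slc2a3 was at 2.87 CPM there. No P1 cell held a count of it. Against a floor of 3 counts over the P1 cells, which is 0.440 CPM, Slc2a3 at P1 stood at a log2 ratio of -7.71 to E9.5 (-7.67 against set C), and by the upper end of the exact interval of 0 counts it was -7.41. Slc2a4 encodes GLUT4, the insulin-responsive transporter of muscle and fat, and lies at chr11:69942539-69948188. It stood at 22.5 CPM at E9.5, 1.29 at E12.5 and 17.3 by P1, which were found in 4 of 42, 4 of 29 and 10 of 41 cells (9.52%, 13.8% and 24.4%, and 4.76%, 10.3% and 21.1% after thinning). The E9.5 value came almost wholly from 1 cell of set N530, which held 98.2% of its counts, and without that cell Slc2a4 was at 0.411 CPM at E9.5. The log2 ratio of Slc2a4 for P1 to E9.5 was -0.38 and not called, but it was 1.47 within set C. Within set C, and without the leading cells, Slc2a4 was called higher at P1 than at E9.5. Its call as lower at E12.5 than at E9.5 (log2 ratio -4.13) reversed to 0.91 without the leading cell of each time point. The call as higher at P1 than at E12.5 (log2 ratio 3.75) was lost with the deposited TPM, where the log2 ratio was 2.53 and the P1 mean of 9.83 was under the level limit of 10.

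Both hexokinases of the first step were called lower at P1 than at E9.5, and the call of Hk1 was lost within set C. Hk2, the isoform of muscle and of growing cells, lies at chr6:82725025-82774454 and was at 1217 CPM at E9.5 (1210 to 1224), 627 at E12.5 (621 to 634) and 299 by P1 (286 to 313). Its cells ranged from 0.380 to 6381 CPM (median 578) at E9.5, from 0 to 2427 CPM (median 452) at E12.5 and from 0 to 2506 CPM (median 63.6) at P1. A count was present in 42 of 42, 21 of 29 and 29 of 41 cells (100%, 72.4% and 70.7%, and 97.6%, 68.97% and 68.4% after thinning). Against E9.5, P1 stood at a log2 ratio of -2.02 (-2.04 to -1.73). For P1 to E12.5 it was -1.07, and with a minimum of 3000 genes per cell it was 0.12. At E12.5, 1 cell held 51.5% of the Hk2 counts, and without it Hk2 was at 351 CPM there. Without the leading cells the log2 ratio of P1 to E12.5 was -0.62 and its call was lost, and Hk2 was called lower at E12.5 than at E9.5. Hk1, the broadly used isoform at chr10:62268855-62379908, was at 216 CPM at E9.5, 115 at E12.5 and 82.6 by P1, a log2 ratio of -1.39 for P1 to E9.5 and of -0.30 within set C. Its E12.5 level was 50.7 CPM without 1 cell that held 60.3% of the counts. At P1, 24.9% of the Hk1 counts came from the cell with endothelial markers described above. On the deposited TPM, which corrects for gene length, Hk2 made up 83.5%, 82.9% and 75.4% of the pair at the 3 ages, so Hk2 was the larger part throughout. In single cells it exceeded Hk1 in 34 of 42 cells at E9.5 (81.0%, 65.9 to 91.4), in 20 of 27 at E12.5 (74.1%, 53.7 to 88.9) and in 22 of 38 at P1 (57.9%, 40.8 to 73.7).

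In the upper steps from glucose 6-phosphate to triose phosphate, 2 of 6 genes tested were lower at P1 than at E9.5 and none was higher, beside 35.7% and 18.1% of all genes. Aldoa, the aldolase of muscle and most other tissues, took up 4839 CPM at E9.5, 5050 at E12.5 and 3358 by P1, with cell means of 4369, 3954 and 3060 on the TPM scale. It was found in all 112 cells used, over a range of 17.8 to 11324 CPM at E9.5, 921 to 9556 at E12.5 and 258 to 8235 by P1. Gpi1, which converts glucose 6-phosphate to fructose 6-phosphate, was at 884, 716 and 564 CPM, and Tpi1, which interconverts the triose phosphates, at 1186, 550 and 1017 CPM. None of these 3 was called in any comparison. Aldoc, the brain form of aldolase, was at or under 6.87 CPM at each age and did not reach the level limit.

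Phosphofructokinase, the committing step, is a tetramer built from liver, muscle and platelet subunits. Pfkl, the liver form, was at 190 CPM at E9.5, 206 at E12.5 and 69.5 by P1 and was found in 35 of 42, 19 of 29 and 13 of 41 cells. On the log2 scale the ratio to E9.5 at P1 was -1.45 (-1.47 to -1.11), and against E12.5 it was -1.57 (-1.72 to -0.59). The call against E12.5 was lost within set C, with thinning, with the deposited TPM and under other settings. Pfkp, the platelet form, was at 401, 88.9 and 166 CPM, with a log2 ratio of -1.27 for P1 to E9.5 that was -0.35 against set C. Pfkm, the muscle form, was at 121 CPM at E9.5, 52.8 at E12.5 and 144 by P1, and it was called higher at P1 than at E12.5 (log2 ratio 1.44, 0.82 to 1.59). This call was lost within set C, with thinning, with the deposited TPM and with a minimum of 3000 genes. For E12.5 to E9.5 the log2 ratio of Pfkm was -1.19 pooled and 1.13 within set C. Pfkm was found in 17 of 42, 14 of 29 and 23 of 41 cells, 26.2%, 34.5% and 52.6% after thinning. On the TPM scale the cell means of Pfkl, Pfkm and Pfkp were 102, 65.6 and 192 at E9.5 and 34.9, 75.5 and 66.3 at P1. By these means the muscle form was the smallest of the 3 at E9.5 and, by a small margin over Pfkp, the largest at P1. Single P1 cells held up to 1048 CPM of Pfkm and 999.8 CPM of Pfkp, and the order without them was not tested.

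In lower glycolysis the muscle isoforms of enolase and phosphoglycerate mutase stood beside broadly used ones. Eno3, the muscle enolase at chr11:70657202-70662513, was at 985 CPM at E9.5 (979 to 991), 553 at E12.5 (546 to 559) and 2614 by P1 (2576 to 2652). Its cells ranged from 0 to 3347 CPM (median 507), from 0 to 2131 CPM (median 396) and from 0 to 5697 CPM (median 2074) in that order. The ranges overlapped, and the single P1 cell without Eno3 was the cell with endothelial markers. P1 differed from E9.5 by a log2 ratio of 1.41 (1.38 to 2.06), and against E12.5 it was 2.24 (2.23 to 2.28). Eno1, the broadly used enolase at chr4:150236721-150248879, was at 17.1 CPM at E9.5 (16.3 to 17.9), 8.73 at E12.5 (7.93 to 9.58) and 0.293 by P1 (0.0355 to 1.06), where it rested on 2 counts in 1 cell. Against E9.5 this is a log2 ratio of -5.86 with a counting interval of -8.91 to -4.01. Eno1 is uncertain, because 65.4% of the 75-base windows of its transcript, the length of a read, also occur in 6 other genes, 5 of them pseudogenes, and how reads with several matches were counted is not given in the sources used here. Between naming sets Eno1 was uneven, with a count in 28 of 28 N530 cells and 6 of 14 set C cells at E9.5, and in 8 of 8 N523 cells and 1 of 20 set C cells at E12.5. Eno2, the neuronal enolase, was at 31.8, 5.86 and 15.1 CPM in 7 of 42, 6 of 29 and 6 of 41 cells and was not called.

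Pgam2, the muscle mutase, was called in no comparison. It lies at chr11:5801640-5803733 and was at 937 CPM at E9.5 (931 to 943), 1813 at E12.5 (1802 to 1825) and 1636 by P1 (1606 to 1667). Cells ranged from 0 to 2649 CPM (median 452) at E9.5, from 117 to 7053 CPM (median 916) at E12.5 and from 0 to 4212 CPM (median 1484) at P1. Its ratio of P1 to E9.5, 0.80 on the log2 scale, stayed under the 2-fold limit, and against set C of E9.5 it was 1.90. For E12.5 to E9.5 it was 0.95 and ran from -0.20 to 2.20 over naming sets. Pgam1, the broadly used mutase at chr19:41911923-41918660, was at 374 CPM at E9.5 (370 to 378), 346 at E12.5 (341 to 351) and 66.4 by P1 (60.4 to 72.8). Single cells held 1.196 to 1423 CPM (median 338) at E9.5, 0 to 788 CPM (median 384) at E12.5 and 0 to 564 CPM (median 0) at P1. Pgam1 counts were present in 42 of 42 cells at E9.5, in 28 of 29 at E12.5 and in 19 of 41 by P1 (46.3%, and 42.1% after thinning). Against E9.5, P1 stood at a log2 ratio of -2.49 (-2.87 to -2.47), and against E12.5 it was -2.38 (-2.41 to -2.37). The P1 cell with endothelial markers supplied 25.6% of the P1 counts of Pgam1, and 40.6% of the transcript's windows also occur in 2 pseudogenes.

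Of the enzymes with a single main gene, Gapdh, which oxidises the triose phosphate, was at 480 CPM at E9.5, 657 at E12.5 and 1270 by P1. It was called higher at P1 than at E9.5 (log2 ratio 1.40), with 0.86 against set C. Gapdh is uncertain too, since 80.3% of its windows occur in 121 other genes, 115 of them pseudogenes. Pgk1, which makes the first ATP of the pathway, was at 632, 542 and 390 CPM and was not called, and 67.5% of its windows are shared with 4 pseudogenes. Pkm, the pyruvate kinase of muscle and most other tissues, was at 2528 CPM at E9.5, 1787 at E12.5 and 760 by P1. It was present in every cell used, from 50.2 to 11177 CPM (median 1657), from 242 to 3199 CPM (median 1356) and from 6.68 to 3529 CPM (median 585). On the log2 scale the ratio to E9.5 at P1 was -1.73 (-1.76 to -1.24), and against E12.5 it was -1.23 (-1.34 to -0.67). The call against E12.5 was lost within set C, with thinning, with the deposited TPM and with means of cell CPM. The counts are per gene, so the splice forms of Pkm cannot be told apart. Without the 4 members that share 20% or more of their windows, the counts of called members were 5 higher and 7 lower, 7 and 11, and 6 and 6 in the 3 comparisons.

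In the lactate dehydrogenases the larger isoform at E9.5 was the smaller at P1. Ldha, which encodes the muscle subunit that favours lactate formation, lies at chr7:46841475-46855627 and was at 3917 CPM at E9.5 (3905 to 3929), 1221 at E12.5 (1211 to 1230) and 1043 by P1 (1018 to 1067). Its cells ranged from 14.2 to 8124 CPM (median 3633) at E9.5, from 21.3 to 5491 CPM (median 2163) at E12.5 and from 0 to 2965 CPM (median 686) at P1. Its P1 level lay at a log2 ratio of -1.91 to E9.5 (-1.92 to -1.67). For E12.5 to E9.5 it was -1.68, but -0.34 within set C (3325 and 2631 CPM) and -0.75 with means of cell CPM, both short of the limit. For P1 to E12.5 it was -0.23 and not called, but it was -1.34 within set C. Ldha was called lower at P1 than at E12.5 within set C, with means of cell CPM and with the deposited TPM. Ldhb, the gene of the heart subunit at chr6:142490249-142507957, was at 443 CPM at E9.5 (439 to 447), 1237 at E12.5 (1228 to 1247) and 3362 by P1 (3318 to 3406). Cells went from 0 to 2194 CPM (median 163) at E9.5, from 2.53 to 2852 CPM (median 1147) at E12.5 and from 0 to 7246 CPM (median 2993) at P1. It was higher at each later age, with log2 ratios of 1.48 for E12.5 to E9.5 (1.42 to 2.05), 1.44 for P1 to E12.5 (1.43 to 1.48) and 2.92 for P1 to E9.5 (2.90 to 3.48).

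Both subunits can be set against each other in the same cell on the TPM scale. Ldhb made up 11.9% of the mean TPM of the pair at E9.5, then 46.02% at E12.5 and 82.9% by P1, and by naming set 11.9% in both C and N530 at E9.5, 42.2% in C and 61.7% in N523 at E12.5. Ldhb exceeded Ldha in 0 of 42 cells at E9.5 (0%, with an upper end of 8.41% by the same interval over cells), in 10 of 29 at E12.5 (34.5%, 17.9 to 54.3) and in 39 of the 40 P1 cells with either gene (97.5%, 86.8 to 99.9). Every cell at E12.5 held counts of both genes. The P1 cell with neither gene was the cell with endothelial markers. The Ldhb share of a cell ran from 0% to 43.7% at E9.5 and from 49.4% to 99.9% at P1, without overlap, and from 2.78% to 98.8% at E12.5.

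**Figure D3:**
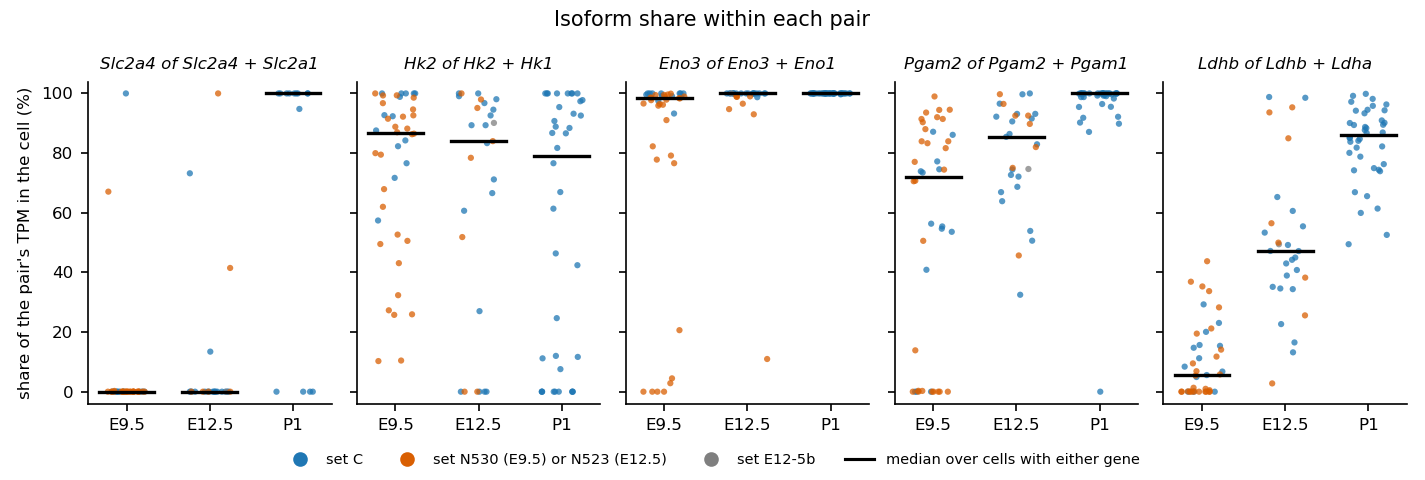
Share of the first gene in the TPM of its pair in each cell (y axis, percent) at the 3 time points (x axis) for the 5 isoform pairs; points are cells with either gene, coloured by naming set, and bars are medians. For Ldhb the medians are 5.68%, 47.1% and 86.0%, and the E9.5 and P1 cells do not overlap.

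Changes in the balance of a pair need no gene lengths and are given as log2 differences of CPM ratios between P1 and E9.5. As P1 holds set C alone, the ranges and SDs vary the E9.5 set only. The balance of Ldhb to Ldha moved by 4.83 (4.82 to 5.15 over naming sets, SD 0.23). For Pgam2 to Pgam1 the change was 3.30 (3.23 to 4.78, SD 1.09), and for Slc2a4 to Slc2a1 it was 3.98 (3.96 to 5.03, SD 0.76), and it was 9.88 without the leading cell of each gene. Eno3 to Eno1 changed by 7.27 (5.93 to 7.30), a value that rests on 2 Eno1 counts at P1. In the hexokinase pair the change was -0.63 (-1.43 to -0.61, SD 0.59), towards Hk1, and it was 0.01 with a minimum of 3000 genes. Muscle or heart isoforms were thus the larger part of their pair at P1 on the TPM scale for enolase (99.7% or more in each of the 40 cells with either gene), mutase (97.7% of the mean TPM) and lactate dehydrogenase (82.9%). At E9.5 the same shares of the mean TPM were 98.6% for Eno3, 76.99% for Pgam2 and 11.9% for Ldhb. The enolase and mutase shares carry the uncertainty of Eno1 and Pgam1 described above, since reads that also match their pseudogenes may not be counted in full. Slc2a4 was 31.6% of the mean TPM of its pair at P1, although it exceeded Slc2a1 in 10 of the 14 cells with either gene (71.4%, 41.9 to 91.6).

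At E9.5 some cells held little of the muscle and heart isoforms. Eno3 was under 10 CPM in 11 of 42 cells, Pgam2 in 13 and Ldhb in 16, and 7 cells were under 10 CPM for all 3. Of these 7 cells, 6 were of set N530 and 1 of set C, and 6 had 6 or more of the cardiomyocyte markers. The 6 N530 cells had 2051 to 3212 genes with a count, where the median of that set was 4400.5 genes, and the part of this in the low values was not tested, nor was whether the 3 genes were low together more often than apart. Ldha in these cells ran from 14.2 to 8124 CPM and Pkm from 50.2 to 11177 CPM. At E12.5 no cell and at P1 1 cell, the one with endothelial markers, was under 10 CPM for all 3.

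**Figure D4:**
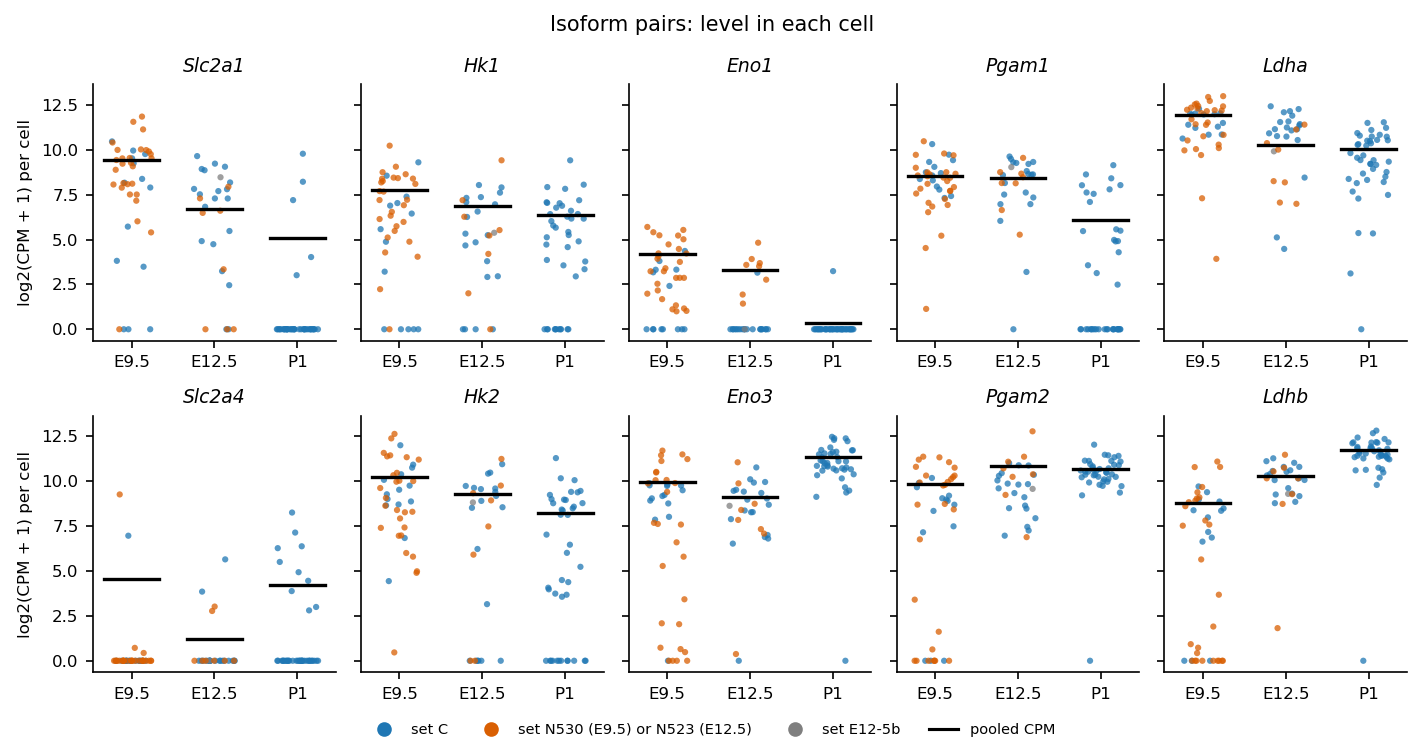
Level of the 10 genes of the isoform pairs in each cell as log2(CPM + 1) (y axis) at the 3 time points (x axis). Slc2a1, Hk1, Eno1, Pgam1 and Ldha are above, and Slc2a4, Hk2, Eno3, Pgam2 and Ldhb below. Points are cells coloured by naming set and bars the pooled CPM. Slc2a1 and Pgam1 have medians of 0 CPM at P1, where Eno3 and Ldhb have medians of 2074 and 2993 CPM.

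Lactate and pyruvate cross the cell membrane through monocarboxylate transporters. Slc16a3 encodes MCT4, the transporter of cells that export lactate, and was at 72.4 CPM at E9.5, 4.43 at E12.5 and 1.03 by P1. It was found in 35 of 42, 14 of 29 and 3 of 41 cells (83.3%, 48.3% and 7.32%, and 61.9%, 34.5% and 5.26% after thinning). The log2 ratio to E9.5 at P1 was -6.14, with a counting interval of -7.45 to -5.10 from 7 counts at P1, and -5.14 against set C. For E12.5 to E9.5 it was -4.03 and within set C -0.42, and the call was lost there and with TMM factors. These factors shift every ratio of that comparison by 0.43, and only the set C ratio changed direction. At E9.5, 1 cell held 59.7% of the Slc16a3 counts, and without that cell the gene was at 30.0 CPM. Without the leading P1 cell it was at 0.454 CPM at that age. The leading E9.5 cell carried 1246 CPM of the endothelial markers, beside 76458 CPM of the cardiomyocyte markers. Slc16a1, which encodes MCT1, the transporter that also serves uptake, was at 239, 46.1 and 131 CPM in 40 of 42, 23 of 29 and 33 of 41 cells. Its log2 ratio of E12.5 to E9.5 was -2.38 and -0.25 within set C, and the call was lost without the cells of few cardiomyocyte markers. The E9.5 cells among these are all of set C, while set N530 supplied 94.5% of the E9.5 counts. Neither comparison of Slc16a1 with P1 was called.

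The 4 pyruvate dehydrogenase kinases went in different directions. Pdk4, which is induced by fasting and by fatty acids, was at 7.70 CPM at E9.5, 27.9 at E12.5 and 235 by P1. Its cells ranged from 0 to 260 CPM (median 0), from 0 to 619 CPM (median 0) and from 0 to 1301 CPM (median 119), and it was found in 6 of 42, 10 of 29 and 31 of 41 cells (14.3%, 34.5% and 75.6%, and 7.14%, 27.6% and 76.3% after thinning). P1 differed from E9.5 by a log2 ratio of 4.93 (4.86 to 8.04), and against E12.5 it was 3.08 (1.67 to 3.96). A single cell held 97.0% of the E9.5 counts, and without it Pdk4 was at 0.234 CPM at that age. At E12.5 it was at 17.1 CPM without the leading cell. Pdk2, the widely expressed kinase, was at 16.9, 161 and 172 CPM in 9 of 42, 19 of 29 and 31 of 41 cells, with a log2 ratio of 3.34 for P1 to E9.5 (3.32 to 3.95). For E12.5 to E9.5 it was 3.25, and since 1 N523 cell held 83.3% of the E12.5 counts it was 1.23 without the leading cells. For P1 to E12.5 it was 0.09 and not called, but it was 2.07 within set C. Within set C, and without the leading cells, Pdk2 was called higher at P1 than at E12.5.

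Pdk1, a target of hypoxia signalling in other cells, was at 188 CPM at E9.5, 102 at E12.5 and 42.7 by P1 in 34 of 42, 22 of 29 and 21 of 41 cells. Against E9.5, P1 stood at a log2 ratio of -2.14 (-2.14 to -2.03), and against E12.5 it was -1.25 (-2.13 to -0.96), a call that was lost without the leading cells. Without 1 cell Pdk1 was at 61.7 CPM at E12.5. Pdk3 was highest at E12.5 in pooled CPM, at 53.5, 162 and 33.9 CPM, with log2 ratios of 1.597 from E9.5 to E12.5 (0.45 to 1.75) and of -2.26 from there to P1 (-2.38 to -1.48). The first of these calls was lost within set C (0.45), with the deposited TPM and without the leading cells (0.84). In the E12.5 value 66.8% of the counts were from 1 cell, without which Pdk3 was at 59.1 CPM there, and without the leading cells it was at 33.1 CPM at E9.5 and 18.7 at P1. On the TPM scale the mean over cells was highest for Pdk1 at E9.5 (94.3), for Pdk3 at E12.5 (109) and for Pdk2 and Pdk4 at P1 (119 and 107).

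Among the glycogen enzymes, those that build branches and those that break glycogen down in muscle were higher at P1 than at E9.5. Pygm, the muscle glycogen phosphorylase, was at 75.1 CPM at E9.5, 93.8 at E12.5 and 328 by P1. Single cells ranged from 0 to 1303 CPM (median 1.24), from 0 to 617 CPM (median 38.5) and from 0 to 1210 CPM (median 189), and 25 of 42, 21 of 29 and 34 of 41 cells held a count. On the log2 scale the ratio to E9.5 at P1 was 2.13 (1.93 to 2.14), and against E12.5 it was 1.81 (1.18 to 1.95). Gbe1, the branching enzyme, was at 9.64, 90.8 and 94.1 CPM in 11 of 42, 12 of 29 and 22 of 41 cells, a log2 ratio of 3.29 for P1 to E9.5 (1.31 to 3.56). The E12.5 value of Gbe1 came to 88.8% from 1 cell and was 12.0 CPM without it, and the E9.5 value was 6.28 CPM without its leading cell.

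Phka1, which encodes the muscle regulatory subunit of phosphorylase kinase, was at 4.54, 125 and 60.7 CPM in 8 of 42, 9 of 29 and 9 of 41 cells. The leading cell of each age held 72.3%, 49.9% and 45.4% of its counts, and without these cells Phka1 was at 1.29, 70.9 and 33.97 CPM. P1 differed from E9.5 by a log2 ratio of 3.74 (1.55 to 4.08), and the E12.5 value differed between set C (7.30 CPM) and set N523 (150 CPM). Gys1, the muscle glycogen synthase, was at 169, 105 and 57.3 CPM, and its P1 log2 ratio was -1.56 against all E9.5 cells and 0.29 against set C, so that it was not called. Pygb, the brain phosphorylase, was at 121, 95.6 and 78.4 CPM and was not called. The mean TPM of Pygm and Pygb were 68.8 and 64.8 at E9.5 and 179 and 34.3 at P1.

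The pentose phosphate members were scarce. Tkt, the transketolase that links the pathway back to glycolysis, was at 24.3 CPM at E9.5 in 14 of 42 cells, at 0.0989 CPM at E12.5 and at 2.64 CPM at P1, the later values from 5 and 18 counts in 3 cells each. The log2 ratio was -7.94 for E12.5 to E9.5 (counting interval -9.57 to -6.72) and -3.20 for P1 to E9.5 (-3.96 to -2.54). At E9.5, 1 cell held 51.2% of the Tkt counts, and without the leading cells Tkt was at 12.53 CPM at E9.5, 0.0596 at E12.5 and 0.902 by P1. G6pdx, the entry enzyme of the pathway, was at 9.97, 1.15 and 3.08 CPM and did not reach the level limit, and its P1 counts came from 1 cell.

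Genes of fatty acid oxidation were set against the members in the same cells. Of 18 such genes, from uptake (Cd36, Fabp3) to the mitochondrial enzymes, 17 were tested and 16 were called higher at P1 than at E9.5, with a median log2 ratio of 2.90, beside 18.1% of all genes called higher and their median of -0.59. Their summed level per cell ran from 406 to 3210 CPM at E9.5 (median 1603), from 1377 to 8172 CPM at E12.5 (median 3454) and from 2791 to 39504 CPM at P1 (median 22932). The median log2 ratio of the members' sum to this sum was 3.41 at E9.5, then 2.28 at E12.5 and -0.44 by P1, and by naming set 3.37 in C and 3.49 in N530 at E9.5, 2.34 in C and 2.26 in N523 at E12.5. The members' sum was the larger in 42 of 42 cells, 29 of 29 cells and 9 of 41 cells. CPM is not corrected for gene length, and the sums cover 35 and 18 genes. Which sum is the larger in a cell therefore depends on both, and only the change of the ratio between ages is free of them. The P1 value rested on Fabp3, the fatty acid binding protein of heart and muscle, which supplied 46.4% of the pooled fatty acid oxidation counts at P1, after 13.7% and 15.3% at E9.5 and E12.5. Without Fabp3, a setting chosen after seeing the data, the members' sum was the larger in 42 of 42, 29 of 29 and 36 of 41 cells, and the median log2 ratio was 3.69, 2.55 and 0.50 in the same order. The ratio was thus lowest at P1 with and without Fabp3, and its sign at P1 depended on that gene. The medians of the members' own sum lay between 16942 and 17398 CPM.

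**Figure D5:**
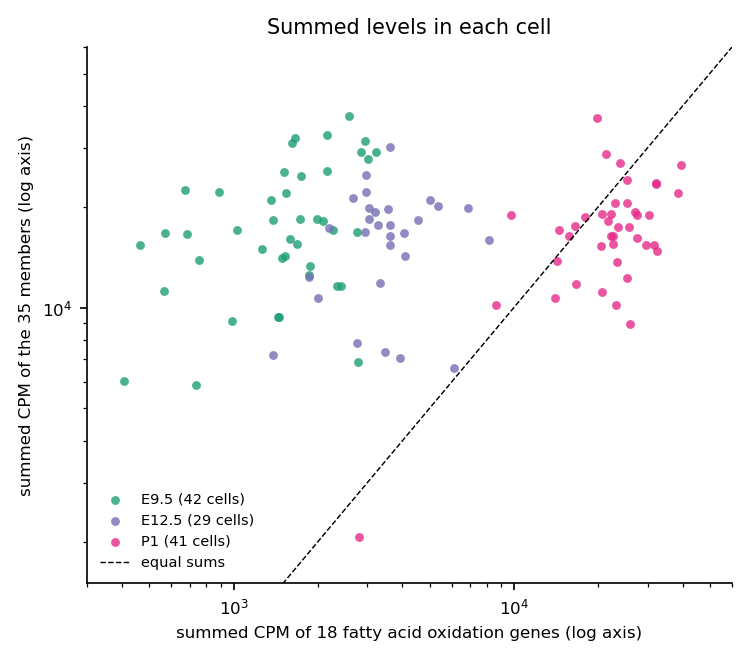
Summed CPM of the 35 members (y axis, log scale) against that of 18 fatty acid oxidation genes (x axis, log scale) in each cell, coloured by time point, with a dashed line where the sums are equal. The sums are not corrected for gene length or for the number of genes. All E9.5 and E12.5 cells lie above the line and 32 of 41 P1 cells lie below it, where 36 of 41 would lie above it without Fabp3; the lowest point is the P1 cell with endothelial markers, at 2057 CPM.

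Other genes of the pathway were followed as lists, given here for P1 and E9.5, with the 3 largest ratios among the called genes of each and beside 18.1% of all genes higher and 35.7% lower. Of 8 genes of the pyruvate dehydrogenase complex and its phosphatases, 5 were higher and 1 lower (median log2 ratio 1.65), led by the subunits Dld (182 CPM at E9.5 and 1029 CPM at P1) and Dlat (44.5 and 247 CPM) and the phosphatase Pdp1 (11.7 and 52.9 CPM). Of 4 further transport genes tested, 3 were higher. They were the mitochondrial pyruvate carrier subunits Mpc1 (23.9 and 366 CPM) and Mpc2 (61.5 and 436 CPM), listed as Brp44l and Brp44, and Slc2a10, which was found in only 2 P1 cells. For the malate-aspartate and glycerol phosphate shuttles, which carry cytosolic reducing equivalents into mitochondria, 4 of 9 genes were higher and 1 was lower, with Mdh1 at 1302 and 7796 CPM, Slc25a11 at 177 and 492 CPM and Gpd2 at 60.2 and 15.2 CPM.

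Against the same shares of all genes, further glycogen genes were split, with 4 of 13 higher and 5 lower. The regulatory subunit Ppp1r3a went from 17.6 to 174 CPM and Ppp1r3b from 83.7 to 9.09 CPM, while Nhlrc1 rested on 2 cells at each age. Of 5 further pentose phosphate genes tested, 4 were lower and none was higher (median log2 ratio -4.03), with Pgd at 146 and 2.79 CPM, Rpe at 38.4 and 2.35 CPM and Taldo1 at 150 and 66.3 CPM. Among 3 further glycolysis genes tested, Pfkfb2, which makes the activator of phosphofructokinase, was higher (42.7 and 125 CPM) and Minpp1 was lower (24.8 and 7.19 CPM). Of 12 regulators, 3 were higher and 3 lower, among them Epas1 (0.722 and 29.8 CPM), Txnip (56.1 and 276 CPM), a brake on glucose uptake, and Mycn (29.1 and 1.03 CPM). Of 8 genes of the hypoxia response outside glycolysis, 3 were higher and 2 lower (median log2 ratio -0.44), with Ankrd37 at 23.4 and 1.32 CPM, P4ha2 at 27.1 and 5.13 CPM and Ndrg1 found in 1 cell at each age.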

How the data were processed

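Single αMHC-GFP+ heart cells were captured on the Fluidigm C1 and their RNA was amplified with SMART-Seq V4. The authors mapped reads with OLego and deposited raw counts per gene, for which the submitters' processing notes name featureCounts and GRCm38/mm10, and TPM per gene, a length-corrected share, on a linear scale. How reads with several matches were counted is not given in the sources used here.

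Pooled CPM was the sum of a gene's counts across the cells of 1 age with 2000 or more genes over the sum of their totals. Intervals (95%) are exact Poisson for CPM and Clopper-Pearson for shares, and cover only the counting of reads and of cells. A count of 0 was set to a floor of 3 counts per time point. A call needed 10 CPM at the higher age, more than 3 counts there, a 2-fold ratio and 1 direction over naming sets of 6 or more cells. With 1 sample per time point no test was run, and no doublet caller was run. Members and lists were chosen with earlier results of these data known. All members are described, and of other lists the 3 called genes with the largest ratio from E9.5 to P1 are named. The 11 alternative settings were tried for the calls, and 2 further, without members that share sequence and without Fabp3 in the fatty acid oxidation sum, were added after seeing the data. In simulated counts, drawn without differences between naming sets, the call rule also called unchanged genes, so a call is not a test. Gene positions are from GENCODE M21 (GRCm38) and promoters from RefSeq. Python 3.11.15, numpy 2.4.6, pandas 2.3.3, scipy 1.17.1, matplotlib 3.10.9 and edgeR 4.0.16 (TMM factors only) were used.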

Additional observations from a re-analysis of the deposited data

Results flagged for a closer look

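The 11 P1 cells with fewer than 2000 genes were outside the pooled values of the report and entered only the alternative with a minimum of 1000 genes, and they held the members at 20010 CPM in sum, from 14306 of 714929 counts. They had 1091 to 1985 genes and 4903 to 149120 counts, and 26 of the 35 members were found. Ldhb was at 4407 CPM, Aldoa at 3070 CPM, Eno3 at 2718 CPM and Ldha at 1499 CPM. Slc2a1, Slc2a3, Pgam1, Eno1, Eno2, Slc16a3, Phka1, G6pdx and Tkt had no count in these cells. Of them Pgam1 was at 66.4 CPM, Phka1 at 60.7 CPM, Slc2a1 at 32.99 CPM and Eno2 at 15.1 CPM in the P1 cells used, and the other 5 were at or under 3.08 CPM there. Gbe1 was at 11.2 CPM in the cells left out and at 94.1 CPM in those used.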

How the results depend on the processing

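The counts of members called from E9.5 to P1 stayed within 1.5 times of 8 higher and 13 lower under every setting tried. The members called changed more, and in set C alone the calls of Hk1, Pfkp, Gapdh and Eno1 were lost. Calls of Slc2a4, Pfkm, Aldoc, Pgam2, Pdk3 and G6pdx were gained there. From E9.5 to E12.5, 5 members higher became 2 without the leading cell of each gene, and 7 lower became 4 with TMM factors, 4 in set C alone and 12 in the deeper sets. The 4 in set C were Tkt, the only one of them also called lower in the pooled cells, and Aldoc, Phka1 and G6pdx. From E12.5 to P1, 6 higher became 11 in the deeper sets and 7 lower became 4 without the leading cells. The log2 ratio of the summed members for E12.5 to E9.5 (-0.34) was 0.087 with TMM factors, -0.016 in set C and -0.83 as a median over members. That for P1 to E9.5 (-0.22) was 0.11 in set C, 0.39 without Aldoa, Ldha and Pkm and -0.70 as a median. That for P1 to E12.5 (0.12) was -0.14 with TMM factors, -0.23 as a median, 0.10 as a mean of cell CPM, 0.13 and 0.069 with minimums of 1000 and 3000 genes, 0.11 thinned, 0.14 without 13 cells whose titles end in "no", 0.16 without the cells of few cardiomyocyte markers, 0.30 without the leading cells and 0.59 without the 3 members.

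The balance of Slc2a4 to Slc2a1 (3.98) was 5.03 in set C and 9.88 without the leading cells, and that of Hk2 to Hk1 (-0.63) was 0.0094 with 3000 genes and -1.43 in set C. For Eno3 to Eno1 (7.27) it was 5.55 with 3000 genes, 5.68 thinned and 5.93 in set C, for Pgam2 to Pgam1 (3.30) 4.78 in set C, and for Ldhb to Ldha (4.83) 5.17 with TPM, 5.15 in set C and 5.09 without the leading cells. Of single members, Slc2a4 for E12.5 to E9.5 turned from -4.13 to 0.91 without the leading cells and Hk2 for P1 to E12.5 from -1.07 to 0.12 with 3000 genes. The cause was not tested for any of these. Depth limits the P1 values, where a count of 0 was set to 0.440 CPM (3 counts). No paired analysis was possible because each time point is 1 sample and no result comes from a test.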
